A study of Mus musculus with 6 samples.

Results

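Paneth cell products were followed in villi of newborn mice through 7 genes, namely *Lyz1*, *Mmp7*, *Mptx1*, *Defa24*, *Ang4*, *Itln1* and *Pla2g2a*. They were chosen as a list of gene symbols, each with a probe set of its own in the platform annotation, and they are 7 of the 19938 genes that the annotation names by a single symbol. Each was read from the probe set with the highest mean over 6 arrays, and probe sets that several defensin genes share are described apart from them. The mutants were *Trpm7* fl/fl;Villin1-Cre pups (*Trpm7*-intestine KO) and the controls their *Trpm7* fl/fl littermates, both 5 days old (P5), with 3 replicates per genotype and 1 whole-transcript Affymetrix array per replicate. Both genotypes carried the floxed *Trpm7* alleles, and the mutants also carried Cre recombinase under the *Villin1* promoter, which is active in the intestinal epithelium. Villi came from whole intestines by mechanical dissociation and centrifugation. The labels give the background as C57BL/6 and the sex as unknown. The methods, however, name C57BL/6J for the Cre line and a strain other than C57BL/6 for the floxed line. These lines were crossed, so that the pups can carry alleles of both backgrounds. Whether such alleles differed between the arrays at the genes followed here or at the defensin probe sets, and their part in the values, was not tested. The replicates are counted as littermates, 3 per genotype.

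Paneth cells lie at the base of small intestinal crypts and release antimicrobial proteins from large granules into the lumen. In mice they mature after birth, as crypts form, so that villi of newborn pups are not a preparation of these cells. Lysozyme 1 cleaves bacterial cell walls, the alpha-defensins (cryptdins) disrupt microbial membranes, and matrilysin, encoded by *Mmp7*, cuts the defensin precursors into their active form. Several of these genes are also active in other cells, *Itln1* for example in goblet cells, and the secretory lineages of the gut epithelium share the transcription factor ATOH1.

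Paneth cell products did not move together in the mutant villi. *Mptx1* and *Defa24* fell 11.3-fold and 8.21-fold, *Itln1* fell 1.39-fold, *Mmp7* rose 2.1-fold and *Lyz1* rose 1.56-fold. *Ang4* and *Pla2g2a* did not pass the test. Values are log2 signals, on which a difference of 1 is a doubling, and a gene was called when limma gave an adjusted p of 0.05 or less over all 30177 probe sets. Of the 7 genes, 2 rose, against 8.04% of all probe sets, and 3 fell, against 8.82%. The 3 control and 3 mutant values did not overlap for 6 of the 7, where 34.5% of all probe sets show no overlap. The 7 genes were chosen with earlier results of these data known, so these counts describe the list and do not test it. The median difference of the 7 genes was -0.06 and that of all probe sets was 0.00. Villi hold many cell types, and in such bulk samples fewer cells of a type and less RNA per cell cannot be told apart.

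**Figure D1:**
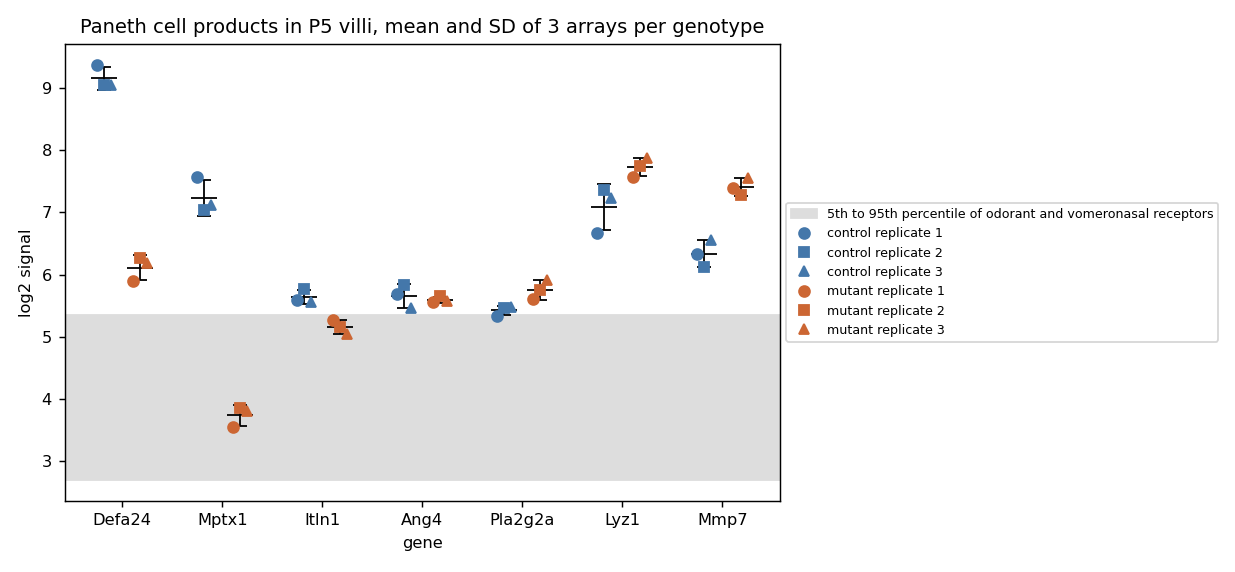
Log2 signal (vertical axis) of each Paneth cell product in the 3 control and 3 mutant arrays, with the mean and SD of each genotype as bars and the 5th to 95th percentile range of odorant and vomeronasal receptor probe sets in grey. *Mptx1* drops from 7.23 to 3.74, inside the grey band, *Mmp7* and *Lyz1* lie higher in every mutant than in any control, and levels are to be compared within a gene and not between genes.

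The targeted gene, *Trpm7*, had log2 signals of 9.11, 8.96 and 9.03 in the controls and 8.03, 7.79 and 7.88 in the mutants (adjusted p = 1.9e-04 from limma). By qPCR, the paper found wild-type *Trpm7* transcripts almost absent from mutant villi. Its Cre deletion leaves a frameshifted gene, and whether the probe set also reads the remaining transcript was not tested. Array medians lay between 6.24 and 6.3. Control replicate 1 and mutant replicate 1 showed *Xist* without Y-linked signal, and mutant replicates 2 and 3 showed Y-linked signal with *Xist* at 4.76 and 5.26. Control replicates 2 and 3 showed both, with *Xist* at 9.82 and 9.66 and *Eif2s3y* at 7.71 and 7.84, so that differences are also given within the arrays without Y-linked signal (1 against 1) and with it (2 against 2). As a guide to what a probe set shows with little transcript, the 1210 probe sets of odorant and vomeronasal receptors had a median between 3.62 and 3.71 and a 95th percentile between 5.28 and 5.35 on the 6 arrays. An exact permutation test of 3 against 3 arrays cannot give a p below 0.1, and the p-values measure the spread between these samples. Although the replicates are counted as littermates, control replicates 2 and 3 carried the signals of both sexes. They were also the most alike of all pairs within a genotype (Pearson's r = 0.9969, against 0.993 to 0.9948 for the others). Whether each array held RNA of a single pup, and whether these controls are independent, was not tested. If they are not, the control spread behind the p-values is too small, and a fit with both averaged is among the alternatives.

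Upstream sequences of the called genes other than *Defa24* are shown. The regulators described further on act through short motifs that can be looked for there. No window was available for *Defa24*, which was called, or for *Pla2g2a*, which was not. RefSeq (GRCm38.p6) gave a window for 5 of the 7 genes, and those of *Mptx1* (chr1:174330268-174330547, plus strand), *Itln1* (chr1:171535265-171535544, minus strand), *Mmp7* (chr9:7691840-7692119, plus strand) and *Lyz1* (chr10:117292839-117293118, minus strand) run from 250 bases before the annotated start to 30 bases after it. Capitals mark matches to CTTTGAT on either strand (a motif of the TCF and LEF factors of Wnt signaling), to CAGCTG or CAGATG on either strand (an E-box of the type that ATOH1 binds) and to TATAAA on the printed strand (the TATA box).
*Mptx1*: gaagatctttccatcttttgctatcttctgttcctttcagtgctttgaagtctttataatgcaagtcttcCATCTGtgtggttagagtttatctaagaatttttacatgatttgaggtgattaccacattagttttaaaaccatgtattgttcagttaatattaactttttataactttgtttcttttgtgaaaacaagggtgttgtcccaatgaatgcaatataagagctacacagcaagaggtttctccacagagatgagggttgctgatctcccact
*Itln1*: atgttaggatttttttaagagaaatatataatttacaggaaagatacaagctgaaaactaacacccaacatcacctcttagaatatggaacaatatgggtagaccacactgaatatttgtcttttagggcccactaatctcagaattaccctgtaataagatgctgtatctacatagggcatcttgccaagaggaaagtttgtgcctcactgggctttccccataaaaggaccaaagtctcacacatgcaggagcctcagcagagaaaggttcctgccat
*Mmp7*: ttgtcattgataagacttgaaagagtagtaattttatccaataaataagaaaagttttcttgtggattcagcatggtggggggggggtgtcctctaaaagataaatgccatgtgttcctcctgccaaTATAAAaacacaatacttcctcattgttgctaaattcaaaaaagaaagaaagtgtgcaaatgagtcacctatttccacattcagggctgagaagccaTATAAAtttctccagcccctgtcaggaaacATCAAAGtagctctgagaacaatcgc
*Lyz1*: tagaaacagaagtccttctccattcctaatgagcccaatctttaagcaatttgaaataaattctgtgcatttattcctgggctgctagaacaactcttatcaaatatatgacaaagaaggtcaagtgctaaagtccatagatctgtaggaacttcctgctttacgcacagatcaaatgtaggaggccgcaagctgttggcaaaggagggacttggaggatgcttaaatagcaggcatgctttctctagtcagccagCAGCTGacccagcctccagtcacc

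The *Mmp7* window held the TCF and LEF motif as ATCAAAG, starting at position 5 counted from the start site as 1, and TATAAA at positions -123 and -26. The TCF and LEF motif was present in 3.56% of 32851 RefSeq windows of this length, and TATAAA in 8.02%. The E-box was present in *Mptx1*, as CATCTG at position -180, and in *Lyz1*, as CAGCTG at position 7. The window of *Ang4*, which was not called, also held the E-box, as CAGATG at position -235. Of all windows, 28.5% held the E-box. *Itln1* had none of these letters in its window. A match is a description of the letters, not of a site in use.

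*Mptx1* encodes a mucosal member of the pentraxins, the family of C-reactive protein. Its log2 signal was 7.56, 7.03 and 7.11 in the controls and 3.55, 3.86 and 3.81 in the mutants. All mutants lay far below all controls, and the mutant values reached down to the level of the receptor probe sets, with 0 of 3 mutants and 3 of 3 controls above the 95th percentile of those. On average it fell by 3.49 log2 units, 7.23 ± 0.29 against 3.74 ± 0.17 (SD, n = 3 each), with a 95% confidence interval from -3.84 to -3.15 and an adjusted p of 2.2e-05 from limma. Because the mutant values sit at that low level, the 11.3-fold describes signals and not amounts of transcript. The difference was -4.01 within the arrays without Y-linked signal and -3.24 within those with it. No other pentraxin passed the test, with 6 further family members measured, and *Mptx2* had no probe set under a single symbol.

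*Mptx1* fell beside some markers of colon epithelium, which whole intestines contain. Of 10 measured colon markers 0 rose and 4 fell, namely *Aqp8*, a water channel (-4.71, adjusted p = 4.7e-06 from limma), *Slc37a2* (-1.18), *Mettl7b* (-0.75) and *Slc26a3*, a chloride-bicarbonate exchanger (-0.64). The other 6 did not pass, and the median difference of the 10 was -0.21. The summed signal of the colon markers was between 13.32 and 13.39 on the log2 scale in the controls and between 12.33 and 12.57 in the mutants. Whether the share of colon in the villi differed, and its part in the values of *Mptx1*, was not tested.

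*Defa24* encodes an alpha-defensin and was the only one of its family that had both a single symbol and signals above the receptor range. Control arrays gave log2 signals of 9.37, 9.04 and 9.04 and mutant arrays 5.89, 6.26 and 6.19. The genotypes were far apart, and every mutant still exceeded the 95th percentile of the receptors. The mean fell by 3.04, from 9.15 ± 0.19 to 6.11 ± 0.20 (SD, n = 3 each; 95% confidence interval -3.34 to -2.74; adjusted p = 2.2e-05 from limma). Within the arrays without Y-linked signal the difference was -3.48, and within those with it -2.81. In the RefSeq annotation *Defa24* lies between defensin pseudogenes and near the beta-defensin *Defb1*, whose own log2 signal (4.20 ± 0.10 in controls and 4.14 ± 0.22 in mutants) was not called.

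Other alpha-defensins were read by 6 probe sets that each carry 4 to 9 gene symbols, 15 symbols in all, and which gene a shared probe set measures cannot be told. All 6 fell. The deepest fall was at probe set 10570700, with 8 symbols that include *Defa3* and *Defa17*. It read 8.56, 8.20 and 8.44 in the controls and 6.18, 6.40 and 6.15 in the mutants, a difference of -2.16 (95% confidence interval -2.42 to -1.89; adjusted p = 4.2e-05 from limma). Probe sets 10570663 and 10570723 carry the same 8 symbols as this one, and they fell by 1.98 (adjusted p = 4.2e-05 from limma) and by 1.45 (adjusted p = 6.8e-05 from limma). Probe sets with one annotation thus differed in how far they fell, and the difference between them was not tested.

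Probe set 10570703, for *Defa27*, *Defa28*, *Defa25* and *Defa-ps1*, read 7.15, 7.07 and 7.24 in the controls and 5.57, 6.00 and 6.01 in the mutants (difference -1.29; adjusted p = 5.2e-04 from limma). The smallest falls were those of the probe sets that carry *Defa21* and *Defa22*. Probe set 10570651 went from 7.84 ± 0.12 to 6.93 ± 0.18 (difference -0.91; adjusted p = 0.0014 from limma), and probe set 10570671 from 8.02 ± 0.13 to 7.19 ± 0.08 (SD, n = 3 each; difference -0.83; adjusted p = 8.7e-04 from limma). In none of the 6 did control and mutant arrays overlap, where 34.5% of all probe sets show no overlap. *Defa39*, the other defensin with a single symbol, stayed under the 95th percentile of the receptors on all arrays, with 4.79, 4.37 and 4.69 in the controls and 4.50, 4.22 and 4.65 in the mutants (difference -0.16; adjusted p = 0.518 from limma).

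**Figure D2:**
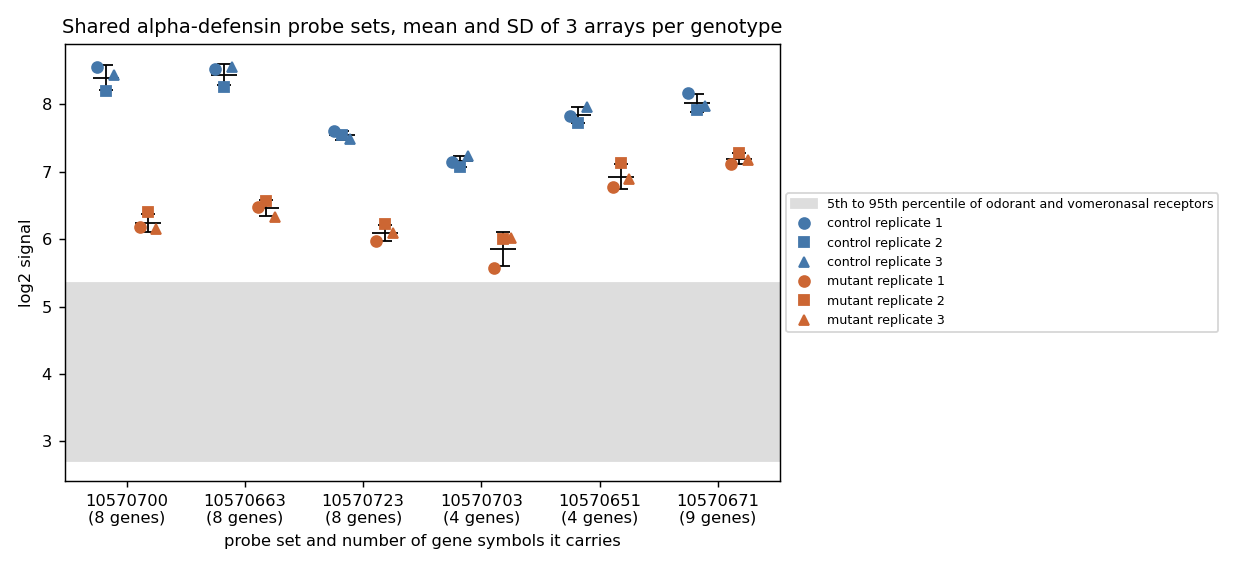
Log2 signal (vertical axis) of the 6 probe sets shared by alpha-defensin genes in the 3 control and 3 mutant arrays, with mean and SD bars and the receptor range in grey. All 6 lie lower in every mutant than in any control, by 0.83 to 2.16 on average, and all mutant values stay above the grey band.

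*Mmp7*, whose product matures the defensins, went the other way from its substrates. In the controls the log2 signal was 6.33, 6.12 and 6.55, and in the mutants 7.39, 7.27 and 7.55. Every mutant was higher than every control. The mean rose by 1.07, from 6.33 ± 0.22 to 7.40 ± 0.14 (SD, n = 3 each; 95% confidence interval 0.78 to 1.36; adjusted p = 0.0011 from limma). The difference was nearly the same within the arrays without Y-linked signal (1.06) and with it (1.08).

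Of 20 measured matrix metalloproteinases 5 rose, 2 fell and 13 did not pass, with a median difference of 0.01. *Mmp8*, the collagenase of neutrophils, rose by 2.11 (adjusted p = 0.0042 from limma), *Mmp19* by 0.77, *Mmp2* by 0.38 (adjusted p = 0.045 from limma) and *Mmp20* by 0.36. *Mmp20* lay under the 95th percentile of the receptors on all arrays, as did *Mmp8* and *Mmp19* in the controls. Their differences therefore describe signals and not amounts of transcript. *Mmp14* fell by 0.51 and *Mmp10* by 0.49. Among 5 inhibitors of these enzymes, *Timp3* fell by 0.83 (adjusted p = 0.014 from limma) and the other members were not called. The call of *Timp3* was lost in 3 of 15 alternatives.

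*Lyz1* encodes the lysozyme of Paneth cells. Its log2 signal was 6.66, 7.36 and 7.23 in the controls and 7.57, 7.74 and 7.87 in the mutants. The mutants were all higher than the controls, with control replicate 1 lying below the other controls. The mean rose by 0.64, from 7.08 ± 0.37 to 7.73 ± 0.15 (SD, n = 3 each; 95% confidence interval 0.23 to 1.05; adjusted p = 0.043 from limma). Within the arrays without Y-linked signal the difference was 0.91 and within those with it 0.51. The call was lost without control replicate 3 (difference 0.72, adjusted p = 0.071 from limma), mutant replicate 1 (0.72, 0.064), mutant replicate 2 (0.64, 0.120) or mutant replicate 3 (0.57, 0.119), and without control replicate 1 the difference was 0.43 (adjusted p = 0.045). By qPCR in whole duodenum of pups of this age, a sample other than these villi, the paper found *Lyz1* up-regulated.

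*Lyz1* lies next to *Lyz2*, a closely related lysozyme gene of macrophages, and whether the probe sets tell their transcripts apart was not tested. *Lyz2* read 8.43 ± 0.39 in the controls and 8.92 ± 0.58 in the mutants (SD, n = 3 each; difference 0.49; adjusted p = 0.314 from limma). *Lyz1* was the only one of 9 lysozyme genes that was called, and it was not called with arrays centred on the median. Of 16 macrophage and neutrophil markers 4 rose, namely *Cxcr2* (1.70), *Itgam* (0.83), *Csf3r* (0.69) and *Fcgr3* (0.55), 1 fell, *Adgre1* (-0.54), and 11 did not pass. With control replicates 2 and 3 averaged, limma called 0 of the 16 as risen. Their summed signal overlapped between the genotypes, from 11.37 to 11.57 on the log2 scale in controls and from 11.46 to 11.80 in mutants. The part of such cells in the values of *Lyz1* was not tested.

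*Itln1* encodes intelectin 1, a lectin that binds microbial sugars. Log2 signals were low, at 5.59, 5.77 and 5.56 in the controls and 5.27, 5.16 and 5.05 in the mutants. The genotypes did not overlap, and 3 of 3 controls but 0 of 3 mutants lay above the 95th percentile of the receptors. The mean fell by 0.48, from 5.64 ± 0.11 to 5.16 ± 0.11 (SD, n = 3 each; 95% confidence interval -0.69 to -0.27; adjusted p = 0.010 from limma). It was -0.32 within the arrays without Y-linked signal and -0.56 within those with it. The probe set lists 2 RefSeq accessions, of which 1 is not in the RefSeq table used here, and the related *Itlnb* and *Itln2* had no probe set under a single symbol.

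*Ang4* encodes a ribonuclease of the angiogenin family with microbicidal activity. Its log2 signal was 5.68, 5.83 and 5.46 in the controls and 5.56, 5.65 and 5.58 in the mutants, so that the genotypes overlapped. The difference was -0.06, with a 95% confidence interval of -0.30 to 0.18 and an adjusted p of 0.752 from limma. Leaving out control replicate 2 turned it to 0.03 (adjusted p = 0.904). Of 12 measured genes of its family and its inhibitor, *Rnh1*, the cytosolic ribonuclease inhibitor, rose by 0.53 (adjusted p = 0.0036 from limma), *Ang2* fell by 0.34 (adjusted p = 0.015 from limma) and 10 did not pass. *Ang2* lay under the 95th percentile of the receptors on all arrays, and its call was lost in 2 of 14 alternatives.

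*Pla2g2a* encodes a secreted phospholipase A2 that attacks bacterial membranes and is known to be disrupted in C57BL/6 mice, and RefSeq lists it as a transcribed pseudogene. Its log2 signal was 5.34, 5.46 and 5.48 in the controls and 5.60, 5.75 and 5.92 in the mutants. All mutants were higher than all controls, but the difference of 0.33 (95% confidence interval 0.10 to 0.56) was not called (adjusted p = 0.056 from limma). It was called without mutant replicate 1 (0.41, adjusted p = 0.038 from limma). Of 12 measured genes for secreted phospholipases A2 and their receptor, *Pla2g12b* rose by 0.88 (adjusted p = 2.3e-04 from limma), *Pla2g10* fell by 0.39 (adjusted p = 0.041 from limma) and 10 did not pass. The call of *Pla2g10* was lost in 8 of 14 alternatives, among them each of the 6 fits with 1 array left out.

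**Figure D3:**
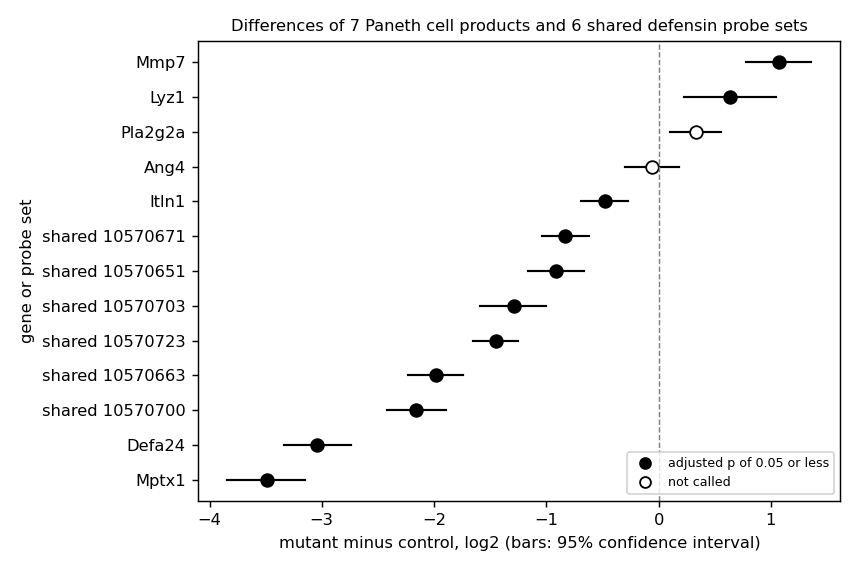
Mutant minus control difference on the log2 scale (horizontal axis) of the 7 Paneth cell products and the 6 shared defensin probe sets, with 95% confidence intervals as bars and filled points for an adjusted p of 0.05 or less. *Mptx1* and *Defa24* lie at -3.49 and -3.04, the shared defensin probe sets between -2.16 and -0.83, and *Lyz1* and *Mmp7* at 0.64 and 1.07.

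Beyond the 7 products, 22 other genes linked to Paneth cells were measured, of which 1 rose, 4 fell and 17 did not pass, with a median difference of -0.06. *Pnliprp2*, a pancreatic lipase relative, rose by 1.70 (adjusted p = 0.0028 from limma). *Clps*, the colipase, fell by 1.63, *Cd24a*, a surface protein of Paneth and progenitor cells, by 1.08, *Nupr1*, a stress-response factor, by 0.83 and *Kit*, a receptor kinase, by 0.49. Those 5 do not encode antimicrobial proteins.

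Regulators of the secretory lineages also moved in both directions. Of 17 measured, 3 rose, 6 fell and 8 did not pass, with a median difference of -0.06. *Atoh1* read 7.79 ± 0.16 in the controls and 6.24 ± 0.07 in the mutants (SD, n = 3 each; difference -1.55; adjusted p = 7.9e-05 from limma). The other falls were those of *Creb3l4* (-1.23), a transcription factor of the endoplasmic reticulum, *Spdef* (-0.62), which drives goblet and Paneth cell maturation, the Notch ligand *Dll1* (-0.53), *Creb3l1* (-0.35) and *Foxa3* (-0.32). *Sox9*, which Paneth cells need to form, rose from 7.78 ± 0.23 to 9.20 ± 0.27 (difference 1.41; adjusted p = 9.4e-04 from limma). *Foxa1* rose by 0.82 and *Tcf7l2*, the TCF factor of the Wnt pathway in the gut, by 0.76.

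**Figure D4:**
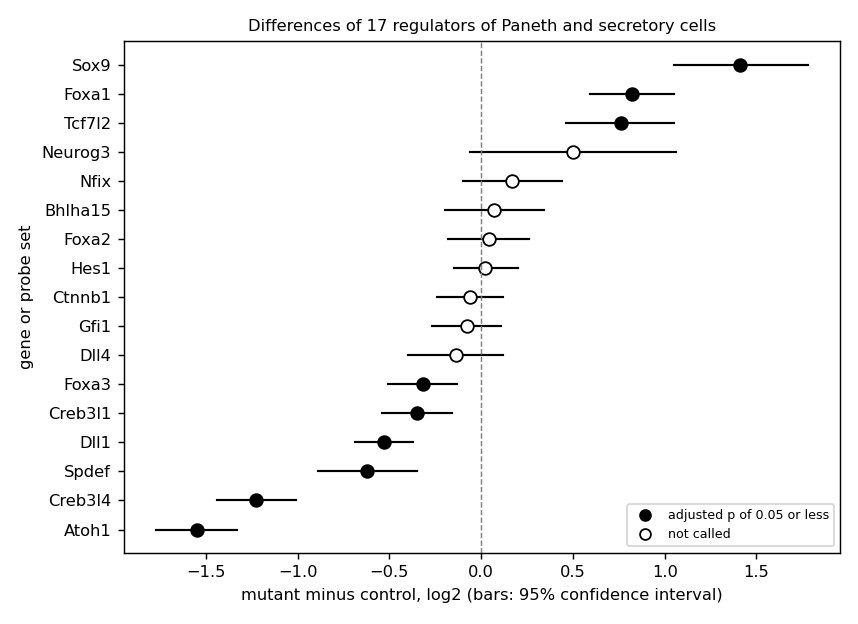
Mutant minus control difference on the log2 scale (horizontal axis) of 17 regulators of secretory cells, with 95% confidence intervals as bars and filled points for an adjusted p of 0.05 or less. *Atoh1* (-1.55) and *Creb3l4* (-1.23) lie lowest and *Sox9* (1.41) highest, with 8 regulators not called.

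Goblet cells share secretory regulators with Paneth cells, and their markers fell beside *Defa24*, *Mptx1* and *Itln1*. Of 16 measured, 13 fell, 1 rose and 2 did not pass, with a median difference of -1.52, and 3 of the 13 (*Atoh1*, *Spdef* and *Creb3l4*) are regulators given above. *Clca1* fell by 3.46 (adjusted p = 1.0e-04 from limma) and the trefoil peptide *Tff3* fell by 2.78 (adjusted p = 8.3e-06), while the mucin *Muc2* fell by 2.69 (adjusted p = 4.7e-06) and *Bcas1* fell by 1.98 (adjusted p = 9.6e-05). By qPCR in whole duodenum of pups of this age, the paper found *Muc2* not altered. Duodenum is a part of the intestine, whereas these villi came from all of it. The cause of the difference was not tested. *Guca2a*, encoding guanylin, rose by 1.58. The summed goblet signal was between 14.64 and 14.80 on the log2 scale in the controls and between 13.08 and 13.12 in the mutants, and its part in the values of the Paneth cell products was not tested.

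Markers of stem cells and the crypt base included rises, as did *Mmp7*. Of 9 measured, 5 rose, 0 fell and 4 did not pass, with a median difference of 0.49. *Cd44* (1.78), *Axin2* (0.70), *Ascl2* (0.63), *Rnf43* (0.54) and *Smoc2* (0.49) rose, and the call of *Rnf43* was lost in 4 of 15 alternatives. *Olfm4* (-0.95, adjusted p = 0.184 from limma) and *Lgr5* (0.14, adjusted p = 0.752), both markers of crypt base stem cells, were not called. Nor were *Tnfrsf19* (0.28, adjusted p = 0.108 from limma) and *Znrf3* (0.08, adjusted p = 0.524). The summed signal of these markers overlapped between the genotypes, from 10.57 to 11.42 on the log2 scale in the controls and from 11.15 to 11.23 in the mutants. The part of such cells, or of Wnt signaling, in the values of *Mmp7* was not tested.

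Other antimicrobial genes, some of which neutrophils also express, included large rises. Of 20 measured, 5 rose, 1 fell and 14 did not pass, with a median difference of 0.33. *Lcn2*, which binds bacterial siderophores, rose by 3.68 (adjusted p = 7.2e-04 from limma), the calprotectin subunits *S100a9* and *S100a8* by 3.46 and 3.31, and the C-type lectins *Reg3g* and *Reg3b* by 2.30 and 1.66. *Reg4* fell by 1.41. *S100a8* read 6.89, 8.35 and 9.69 and *S100a9* 7.94, 8.81 and 10.39 in the mutants. Mutant replicate 3 was highest for both, and it was also highest for the neutrophil genes *Cxcr2* (5.49, 5.66 and 7.33), *Csf3r* (6.28, 6.33 and 7.06) and *Mmp8* (5.62, 5.86 and 7.05), whereas *Ly6g* was highest in mutant replicate 1 (6.70, 4.45 and 4.77). The part of neutrophils in these rises was not tested. With a robust variance prior with trend, 2 of the 20 were called as risen.

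The genes whose log2 signals ran closest to those of each called product were found by Pearson's r over the 6 arrays among 19938 genes. These r are a description, since the arrays share the contrast between genotypes. *Defa24* and *Mptx1* were among the closest to each other (r = 0.9995). Next to both was *Clcn6* (r = 0.9995 with *Mptx1* and 0.9998 with *Defa24*), followed by *Gjb2* for *Mptx1* and *Tff3* for *Defa24* (r = 0.9994 and 0.9992). *Mmp7* ran closest to *Pus7l* (r = 0.9982), *Rps2* and *Vps36*, *Lyz1* to *H1f5* (r = 0.9979), *Exosc8* and *Apex1*, and *Itln1* to *Camk1* (r = 0.9955), *Cd200r1* and *Pbld1*.

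Across 15 alternative ways of processing or fitting, *Mmp7* and *Defa24* were called in the same direction in all 15, and *Mptx1* and *Itln1* in all 14 in which their probe sets were tested. *Lyz1* was called in 8 of 15, *Pla2g2a* in 3 of 14 and *Ang4* in 0 of 14. The 6 shared defensin probe sets were called in all 15. The difference of *Mptx1* lay between -3.6 and -2.01, that of *Defa24* between -3.11 and -2.57 and that of *Mmp7* between 0.84 and 1.18.

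**Figure D5:**
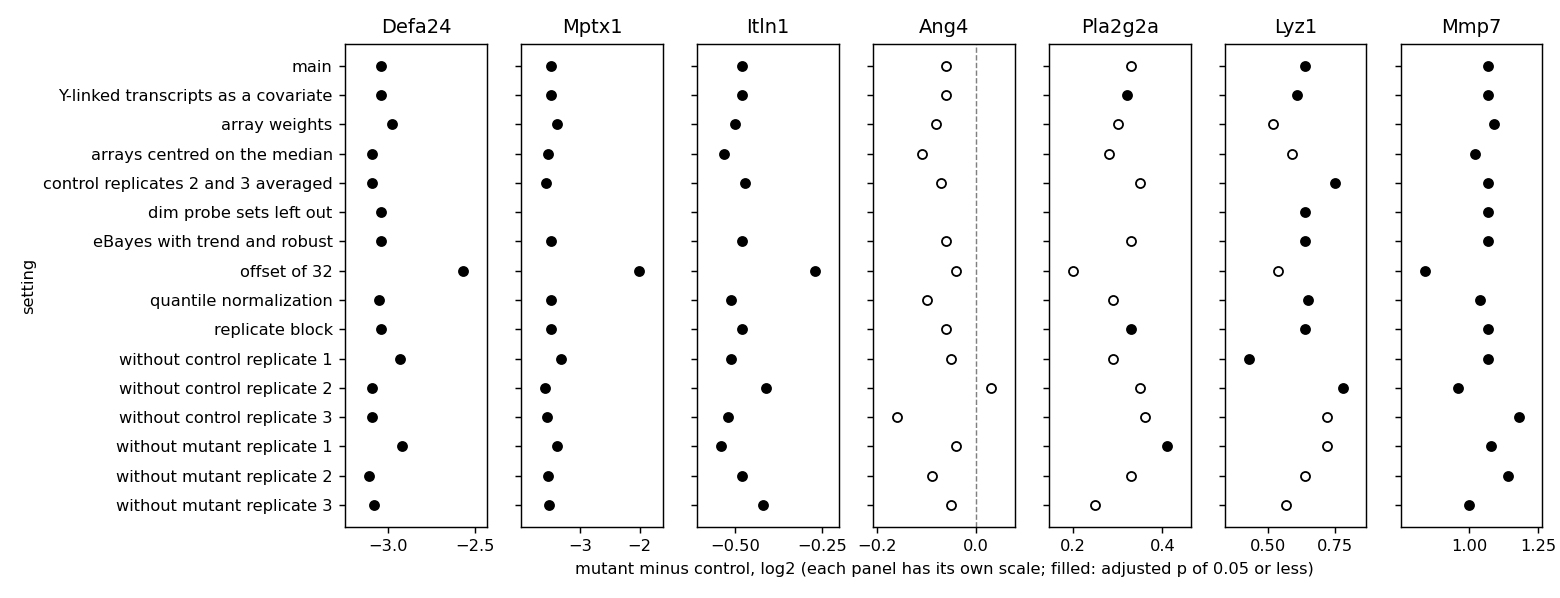
Mutant minus control difference on the log2 scale (horizontal axis, a scale of its own in each panel) of each Paneth cell product as reported (first line) and in each alternative, with filled points for an adjusted p of 0.05 or less and no point where the probe set was left out as dim. *Defa24*, *Mptx1*, *Itln1* and *Mmp7* are filled throughout, *Lyz1* is filled in 8 of 15 alternatives, and *Ang4* lies on both sides of 0.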

How the data were processed

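Villi of control and *Trpm7*-intestine KO littermates were measured on 6 arrays, 3 for each genotype. The values deposited by the authors are log2 signals per probe set, rounded to 0.01, and how background was corrected and arrays normalized is not given in the sources used. The table held 30177 probe sets, 21789 with a single gene symbol, 1621 with several symbols and 6767 without an entry in the annotation, and the symbols of 21698 probe sets matched a RefSeq table used for names. The number of arrays limits the precision. Genotypes were compared with limma 3.58.1 (lmFit and eBayes, R 4.3.3) and p-values were adjusted over the whole table by Benjamini-Hochberg, without a block. The replicate numbers were not used as pairs. Tables and figures were made with pandas 2.3.3 and matplotlib 3.10.9 in Python 3.11.15, and the fit was checked on simulated data. A summed marker signal is log2 of the sum of linear signals.

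The 7 genes and the 20 gene lists (237 genes, 18 of them without a probe set) were chosen with earlier results of these data known. Named genes were the 7 products, *Trpm7*, sex-linked transcripts, all defensin probe sets, up to 4 called genes of each list with the largest difference (or 2 for a list without calls) and the 3 genes most like each called product. *Lyz2*, *Defb1*, *Kit*, *Mmp2*, *Mmp10*, *Mmp20*, *Spdef*, *Dll1*, *Creb3l1*, *Foxa3*, *Tcf7l2*, *Guca2a*, *Smoc2*, *Olfm4*, *Lgr5*, *Tnfrsf19*, *Znrf3*, *Ly6g*, *Reg3b*, *Reg4*, *Adgre1*, *Epcam* and *Chga* were named after their values were seen. Alternatives were array weights, a robust variance prior with trend, a replicate block, quantile normalization, centring on the median, an offset of 32 before log2, dim probe sets left out, control replicates 2 and 3 averaged and each array left out. Y-linked signal as a covariate was added after the data were seen.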

Additional observations from a re-analysis of the deposited data

How the results depend on the processing

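Of the 5 called products, *Lyz1* was the 1 whose call was lost with another processing or array left out, apart from probe sets removed as dim. Its difference was 0.52 with array weights, 0.59 with arrays centred on the median and 0.54 with the offset of 32, none of them called, and 1 of the 7 products rose in each of these settings. The offset also shrank *Mptx1* to -2.01, *Itln1* to -0.27 and *Pla2g2a* to 0.20. *Pla2g2a* was called with the replicate block (0.33) and with Y-linked signal as a covariate (0.32), a setting chosen after seeing the data. Leaving out dim probe sets removed *Mptx1*, *Itln1*, *Ang4* and *Pla2g2a*, so that 1 product fell, *Defa24*. With each array left out in turn, *Lyz1* ranged from 0.43 to 0.78, *Pla2g2a* from 0.25 to 0.41 and *Ang4* from -0.16 to 0.03, turning positive without control replicate 2, while 1 to 2 products rose. Probe sets called went from 5088 to between 3249 and 4385, with 1561 to 2037 that rose (2427 with all arrays) and 1688 to 2348 that fell (2661 with all arrays). These smaller counts came with fewer samples. The cause of the other changes was not tested. The replicate block called 3 rising and 3 falling products and 4957 probe sets in all. Deviations of same-numbered arrays correlated at 0.174, 0.039 and 0.119, and those of control and mutant arrays with unlike numbers between -0.162 and 0.085. Whether same-numbered arrays are pairs, or share signals of sex, was not tested. Besides *Pla2g2a*, the block changed no call among the products and defensin probe sets. Besides the products, calls of *Cxcr2*, *Itgam*, *Csf3r*, *Fcgr3*, *Alox5ap*, *Vim*, *Pla2g10*, *Timp3* and *Ywhaz* were lost when control replicates 2 and 3 were averaged. *Itgam* lost its call in 10 of 15 alternatives, *Ywhaz* in 8 of 15, *Csf3r* and *Pla2g10* in 8 of 14, and *Vim* and *Alox5ap* in 7 of 15. Every product has a single probe set, so another probe set could not be tried. Signals near the receptor range limit what *Mptx1* and *Itln1* can show in mutants and what *Ang4* and *Pla2g2a* can show in both genotypes.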

Other observations

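Enterocyte and enteroendocrine markers moved in both directions, while the called tuft cell and stromal markers only rose. Of 12 enterocyte markers 2 rose, *Krt20* by 1.37 and *Epcam* by 0.27, 3 fell, *Lct*, the lactase of suckling pups, by 0.94, *Fabp1* by 0.59 and *Apob* by 0.37, and 7 did not pass. The call of *Apob* was lost in 3 of 15 alternatives. The summed signal of the enterocyte markers was between 16.91 and 16.95 on the log2 scale in controls and 16.90 in each mutant. Of 13 enteroendocrine markers, the hormone genes *Gip* (-1.17), *Sst* (-1.06) and *Cck* (-0.84) fell, *Gcg* (1.19) and *Chga* (0.41) rose and 8 did not pass. The call of *Gcg* was lost in 3 of 15 alternatives. Of 8 tuft cell markers, *Alox5ap* rose by 1.40 and 7 did not pass. *Alox5ap* read 6.92, 7.39 and 8.59 in the mutants, highest in mutant replicate 3 like the neutrophil genes *Cxcr2* and *Csf3r*, whose part in its value was not tested, and its call was lost in 7 of 15 alternatives. Of 10 stromal markers, *Dcn* (1.03), *Pdgfra* (0.56) and *Vim* (0.34) rose and 7 did not pass, and the call of *Vim* was lost in 7 of 15 alternatives. Of 8 housekeeping genes, *Ywhaz* rose by 0.29 (adjusted p = 0.040 from limma), a call lost in 8 of 15 alternatives, and 7 did not pass.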
